A study of Homo sapiens with 16 samples.

Results

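Cyclic nucleotide phosphodiesterases (PDEs) were followed as 10 genes, PDE1C, PDE3A, PDE3B, PDE4A, PDE4B, PDE4D, PDE7A, PDE7B, PDE8A and PDE10A, selected by gene name from the 57500 genes of the count table. The table held 16 RNA-seq libraries of MDA-MB-231, an established human triple-negative breast cancer cell line, 4 libraries in each of 4 groups. One cell population carried a doxycycline-inducible hairpin against AKAP2, a scaffold protein that anchors protein kinase A (the shAKAP2 line), and the other carried an inducible scrambled hairpin (the shScramble line). Each was sequenced without the antibiotic, hairpin off, and with it, hairpin on. All 4 groups therefore carry a hairpin cassette, and none is an unmodified parental line. The labels do not say whether either line is a clone, which hairpin sequence was used, or how much doxycycline was given for how long. They call the libraries biological replicates without saying that they came from separate cultures, so the tests weigh differences against library-to-library variation that may be partly technical.

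Phosphodiesterases end cyclic nucleotide signals by hydrolysing cyclic AMP, cyclic GMP or both to the inactive monophosphate. Adenylyl and guanylyl cyclases make these messengers, and protein kinase A, protein kinase G, the EPAC exchange factors and cyclic nucleotide-gated channels read them. Families differ in substrate and control: PDE1 is switched on by calcium and calmodulin, PDE3 is inhibited by cyclic GMP, PDE4, PDE7 and PDE8 act on cyclic AMP alone, and PDE10A takes both substrates. Anchoring proteins of the AKAP type hold kinase A beside particular phosphodiesterases, so that cyclic AMP is degraded where it is read.

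Before the values, the pieces of sequence that later results refer to are shown. A 7-base word, GAACACA, was looked for on the sense strand of annotated 3′ UTRs because earlier results of these same data had found it in many genes lowered by doxycycline in the shAKAP2 line. It occurred once in the 3′ UTRs of PDE3B, PDE4D, PDE7A, PDE10A and AKAP2, and not in those of PDE1C, PDE3A, PDE4A, PDE4B, PDE7B or PDE8A. The sites of 3 members and of AKAP2 follow, 5′ to 3′ on the gene's strand, with the word in capitals, since they let a reader set each gene's response beside its own site. Positions are on GRCh38 with GENCODE 29 gene models: chr11:14870489-14870518 on the plus strand for PDE3B, chr5:58971679-58971708 on the minus strand for PDE4D, chr6:165331179-165331208 on the minus strand for PDE10A and chr9:110169247-110169276 on the plus strand for AKAP2.
PDE3B 3′ UTR: ttagttaatatGAACACAgcacagatttgt
PDE4D 3′ UTR: tgcaagttactGAACACAataatgctgttt
PDE10A 3′ UTR: taatatatgtaGAACACAcacatagatgta
AKAP2 3′ UTR: gcagtttatgaGAACACAttttcacagtta

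The second motif was TGACGTCA, the full cyclic AMP response element bound by CREB. RefSeq promoters (GRCh38.p14, 250 bases before to 50 after each start, both strands searched, the motif being its own reverse complement) were present for 8 of the 10 members. The motif occurred in 1 of 5 PDE4A promoters and in the 1 PDE7B promoter. It was in none of the promoters of PDE1C (6), PDE3A (1), PDE4B (6), PDE4D (8), PDE8A (3) or PDE10A (2). Its 5-base core TGACG, which the full motif contains, was found in 1 further member promoter, of PDE4D. Across 35116 promoters in the table, 1.85% held TGACGTCA and 24.6% held TGACG. A match describes these letters only and is not evidence of a bound site. The windows below lie at chr19:10416759-10416788 (PDE4A, the motif beginning 3 bases before the start) and chr6:135851535-135851564 (PDE7B, 155 bases before the start), both on the plus strand.
PDE4A promoter: cgtcagtccgcTGACGTCAcgccccaggag
PDE7B promoter: actaaacccttTGACGTCActcttgaaatg

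Libraries held 24482997 to 37472525 counts over genes. Values below are CPM (counts scaled to library size by the trimmed mean of M-values), given in the order of replicates 1 to 4. The labels do not say that replicate numbers pair libraries. Tests are edgeR's quasi-likelihood test over the 15566 genes that passed its low-count filter, with Benjamini-Hochberg adjustment over all of them, and a gene is called at an adjusted p under 0.05. AKAP2 itself had 144, 212 and 168 summed counts in uninduced shScramble, induced shScramble and uninduced shAKAP2, and 4 in induced shAKAP2 (means 1.17, 1.76, 1.42 and 0.0403 CPM; log2 fold change for doxycycline in shAKAP2 −5.06, SE 0.577, adjusted p = 1.25e-06). It shares exons with a readthrough gene, and how shared reads were counted is not given in the sources used here. Both replicate 1 libraries of shScramble stood apart from their groups, with root-mean-square deviations of 0.318 (uninduced) and 0.336 (induced) log2 units against 0.177 to 0.231 in the other 14. ESR1 and PGR were at or near 0 counts. With ERBB2 these 3 receptor genes summed to 49.7 to 69.2 CPM over all libraries, so most of that sum was ERBB2. Vimentin was high (1400 to 1722 CPM) and E-cadherin low (0.0751 to 0.948 CPM), a pattern known for this line, whose label is epithelial cell. The 6 epithelial markers, E-cadherin among them, summed to 1178 to 1908 CPM.

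Of the 10 members, 9 passed the filter. PDE3A did not: it had 2 counts in uninduced shScramble, 12 in induced shScramble, 2 in uninduced shAKAP2 and 0 in induced shAKAP2, where a count of 0 allows up to 0.0284 CPM. All 12 counts of the induced shScramble group lay in replicates 2 and 3, with 6 each. PDE3A, the cyclic GMP-inhibited form best known from platelets and heart muscle, is therefore at the detection limit here and enters no comparison. Its gene lies at chr12:20369245-20684381 on the plus strand, and 4.81% of its exonic bases overlap an antisense gene.

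**Figure D1:**
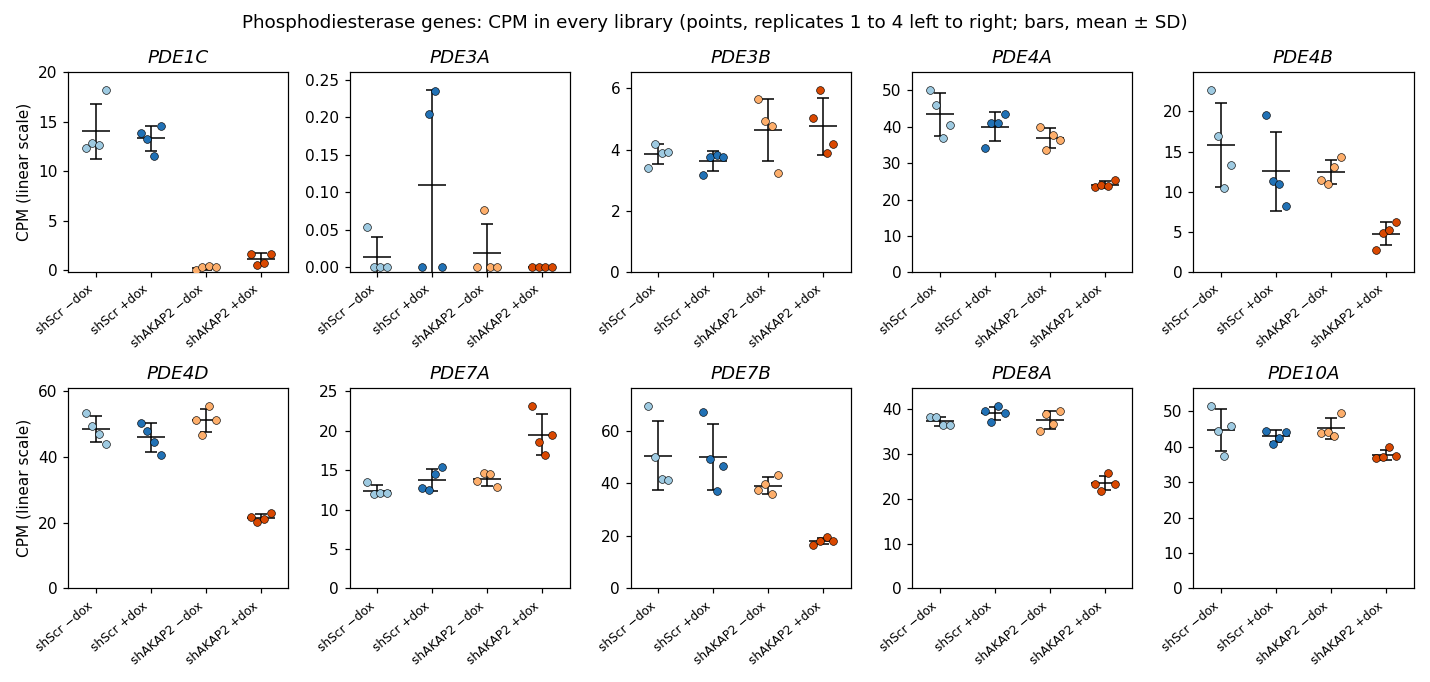
CPM of each of the 10 genes (y axis, linear, own scale per panel) in the 4 groups (x axis); points are libraries, and bars are the mean ± SD of 4. PDE1C separates the lines, at 12.3 CPM or more in uninduced shScramble libraries and 0.419 CPM or less in uninduced shAKAP2, whereas PDE4D lies between 40.6 and 55.3 CPM in 3 groups and between 20.3 and 22.9 CPM in induced shAKAP2.

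The first comparison asked how much of the family was expressed, and from which genes, on a scale adjusted for gene length. Levels were divided by the length of all annotated exons together, as CPM per kilobase. This length (5946 bases for PDE7B, 16308 for PDE4D, 22022 for PDE10A) is not that of the transcripts expressed, so the order depends on it. In uninduced shScramble, CPM without the divisor were 50.6 for PDE7B, 48.4 for PDE4D, 44.6 for PDE10A, 43.4 for PDE4A and 37.2 for PDE8A. In uninduced shScramble PDE7B was the highest member (8.52 ± 2.20 CPM per kb, SD, n = 4), followed by PDE4A (6.53 ± 0.882), PDE8A (4.71 ± 0.128) and PDE4D (2.97 ± 0.240). PDE10A (2.03), PDE4B (1.83), PDE7A (1.67), PDE1C (1.01) and PDE3B (0.328) came next, with PDE3A last at 0.00160. The libraries of PDE7B overlapped those of PDE4A, those of PDE10A overlapped those of PDE4B, and those of PDE4B overlapped those of PDE7A, so these neighbours were not separated by their spread. In the other 6 neighbouring pairs the 4 libraries of one gene all lay above the 4 of the next.

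The order was different in induced shAKAP2, where PDE4A led (3.63 CPM per kb), followed by PDE7B (3.05), PDE8A (2.97), PDE7A (2.63), PDE10A (1.71) and PDE4D (1.32). PDE7B overlapped PDE8A, PDE8A overlapped PDE7A, and PDE4B (0.555) overlapped PDE3B (0.406). PDE7A, which ranked below PDE4D, PDE10A and PDE4B in uninduced shScramble, ranked above all 3 of them here on this scale. It was already above PDE4B in induced shScramble (1.86 and 1.45) and in uninduced shAKAP2 (1.87 and 1.44). In uninduced shAKAP2 its libraries also overlapped those of PDE10A (2.05). In CPM without the length divisor PDE7A (19.5) stayed below PDE4D (21.5) and PDE10A (37.7) in induced shAKAP2. Summed over the 10 members, the level was 29.6 ± 4.15 CPM per kb in uninduced shScramble, 28.7 ± 2.18 in induced shScramble, 25.8 ± 0.685 in uninduced shAKAP2 and 16.4 ± 0.326 in induced shAKAP2 (SD, n = 4). The induced shAKAP2 libraries (15.97 to 16.73) lay below every library of the other groups (25.2 to 35.2). In bulk RNA a smaller number of cells expressing a gene and less RNA per cell cannot be told apart.

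**Figure D2:**
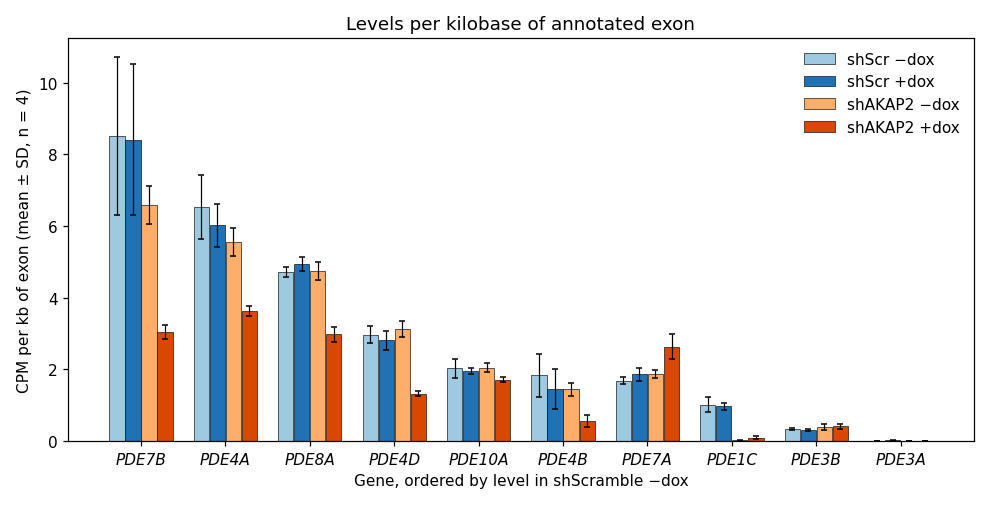
CPM per kilobase of annotated exon (y axis, linear from 0) for each member (x axis, ordered by the uninduced shScramble level); bars are means and error bars SD of 4 libraries per group. On this scale, which depends on the annotated length, cyclic AMP-specific members (PDE7B, PDE4A, PDE8A, PDE4D) are the 4 highest in uninduced shScramble. PDE7A is the called member whose induced shAKAP2 bar is the tallest of its 4.

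Doxycycline in the shAKAP2 line was compared next, to find the members that changed when the AKAP2 hairpin was switched on. Of the 9 tested members, 6 were lower (PDE4A, PDE4B, PDE4D, PDE7B, PDE8A and PDE10A), 2 were higher (PDE1C and PDE7A), and PDE3B was not called. Among all tested genes 28.3% were called in this comparison, 13.1% higher and 15.2% lower. The median log2 fold change was −0.61 over the 9 members and 0.00 over all tested genes. The members were chosen with earlier results of these data known, so these counts and medians describe them and do not test the family. Uninduced and induced libraries did not overlap for 8 of the 9 tested members, against 36.5% of all tested genes without overlap. These were the 8 called members. A call on the same libraries makes such separation likely, so it adds nothing to the calls.

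PDE4D had the smallest p of the family. This cyclic AMP-specific enzyme is the PDE4 form most often found tethered to anchoring proteins and beta-arrestin, and its gene spans chr5:58969038-60522120 on the minus strand. PDE4D was at 51.2, 46.6, 55.3 and 51.2 CPM in uninduced shAKAP2 and at 21.7, 20.3, 21.2 and 22.9 CPM in induced shAKAP2. In shScramble it was at 53.3, 49.2, 47.0 and 44.0 CPM uninduced and at 50.4, 48.0, 44.5 and 40.6 CPM induced. The 4 induced shAKAP2 libraries thus lay below the other 12, which overlapped one another. PDE4D fell 2.37-fold (log2 −1.25, SE 0.0850, adjusted p = 7.97e-10), the tightest estimate relative to its size among the members. Its 3′ UTR holds the GAACACA site printed above. A further 1.39% of its exonic bases overlap the antisense gene PART1.

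The other PDE4 genes fell as well, by different amounts. PDE4B, the isoform known from monocytes and inflammation (chr1:65792514-66374579, plus strand), was at 11.5, 10.9, 13.1 and 14.3 CPM uninduced and at 2.80, 4.91, 5.26 and 6.22 CPM induced in shAKAP2. Its fold decrease, 2.59, was the largest point estimate of a lowered member, with a wide error (log2 −1.37, SE 0.282, adjusted p = 0.00145). In shScramble its replicate 1 libraries were the highest, at 22.6 CPM uninduced and 19.5 CPM induced, against 8.20 to 16.9 CPM in the other 6. PDE4A (chr19:10416773-10469631, plus strand), whose best-known splice form sits at membranes, was at 40.002, 33.6, 37.6 and 36.4 CPM uninduced and at 23.3, 24.1, 23.6 and 25.4 CPM induced. It fell 1.53-fold (log2 −0.61, SE 0.0967, adjusted p = 6.37e-05), and all its shScramble libraries lay between 34.3 and 50.1 CPM. Neither PDE4A nor PDE4B has the 3′ UTR word, and PDE4A is one of the pair with a full response element in a promoter.

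PDE7B and PDE8A were the other members with clear decreases. PDE7B (chr6:135851696-136195574, plus strand), a cyclic AMP-specific form best known from striatum, was at 37.6, 39.9, 35.8 and 43.1 CPM uninduced and at 16.7, 18.1, 19.5 and 18.2 CPM induced in shAKAP2. It fell 2.16-fold (log2 −1.11, SE 0.169, adjusted p = 7.79e-05). In shScramble its 2 highest libraries were both of replicate 1 (69.4 and 67.2 CPM), while the other 6 lay between 37.1 and 49.9 CPM and overlapped uninduced shAKAP2. The antisense gene AL138828.1 overlaps 7.60% of its exonic bases. PDE8A (chr15:84980440-85139145, plus strand) has a very high affinity for cyclic AMP and is insensitive to the general inhibitor IBMX. It was at 35.0, 38.8, 36.6 and 39.4 CPM uninduced and at 23.1, 21.7, 25.6 and 23.2 CPM induced, a 1.60-fold decrease (log2 −0.68, SE 0.0727, adjusted p = 5.58e-07). Its 8 shScramble libraries kept within 36.3 to 40.5 CPM, the narrowest range of a tested member in that line relative to its level.

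PDE10A, a dual-substrate enzyme abundant in striatal neurons (chr6:165327287-165988078, minus strand), was the least changed of the called members. It was at 43.9, 44.0, 43.0 and 49.4 CPM uninduced and at 36.6, 37.0, 39.8 and 37.3 CPM induced in shAKAP2, with shScramble between 37.2 and 51.3 CPM. The groups of the shAKAP2 line did not overlap, but the decrease was only 1.20-fold (log2 −0.26, SE 0.0847, adjusted p = 0.0268). This call was lost without uninduced shAKAP2 replicate 4, or without any one of induced shAKAP2 replicates 1, 2 and 4; over all alternatives its adjusted p ran from 0.00219 to 0.102. Its 3′ UTR holds the GAACACA site printed with the sequences. The antisense gene LINC00602 overlaps 2.40% of its exonic bases.

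Both higher members behaved differently from each other. PDE7A, the closest relative of PDE7B and a cyclic AMP-specific enzyme of T cells and other tissues, was at 13.6, 14.6, 14.5 and 12.9 CPM uninduced and at 23.1, 18.6, 17.0 and 19.4 CPM induced in shAKAP2. It rose 1.41-fold (log2 0.49, SE 0.107, adjusted p = 0.00150), opposite in sign to PDE7B. Its shScramble libraries lay between 12.0 and 15.4 CPM, below all 4 induced shAKAP2 libraries. Its 3′ UTR also has 1 copy of GAACACA, and 1.56% of its exonic bases overlap MTFR1 on the other strand. The gene lies on chromosome 8 from 65717510 to 65842322, minus strand.

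PDE1C, which hydrolyses both messengers under calcium and calmodulin control and is known from smooth muscle and olfactory neurons (chr7:31751179-32299329, minus strand), rose from a very low level. Its counts were 0, 9, 11 and 14 in uninduced shAKAP2 and 41, 14, 21 and 44 in induced shAKAP2, or 0 to 0.419 CPM and 0.513 to 1.69 CPM. The fitted increase was 3.94-fold (log2 1.98, SE 0.468, adjusted p = 0.00375), and it was smaller, log2 1.57, without replicate 1 of uninduced shAKAP2, the library with 0 counts. Even induced, the shAKAP2 libraries stayed far below shScramble, as described with the line differences.

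PDE3B, the form that mediates insulin's anti-lipolytic action in fat cells (chr11:14643723-14872044, plus strand), was at 5.63, 4.92, 4.76 and 3.25 CPM uninduced and at 5.02, 5.94, 3.87 and 4.17 CPM induced. Its groups overlapped, and the log2 fold change was 0.04 with a 95% interval of −0.34 to 0.42 (adjusted p = 0.906). It carries the 3′ UTR word as well. Read over all genes, the word was in 14.1% of 12832 tested genes with an annotated 3′ UTR, in 33.1% of the 2170 called lower with doxycycline in shAKAP2, in 6.53% of the 1915 called higher and in 11.1% of the 8747 not called. Among the members it was in 2 of the 6 lower ones, in 1 of the 2 higher ones and in the 1 not called. These shares are descriptions, since the word itself came from this comparison.

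Other measurements were read in the same groups. Between uninduced and induced shAKAP2 some of them separated and others overlapped. The mitochondrial share of counts was 1.86% to 2.38% in uninduced and 1.02% to 2.04% in induced shAKAP2, against 2.20% to 3.62% in shScramble. A list of 10 blood cell markers summed to 72.4 to 82.2 CPM uninduced and 48.9 to 66.6 CPM induced in shAKAP2, and to 84.5 to 104 and 134 to 183 CPM in shScramble. LAPTM5 made up most of it, and CD3E had 1 count in all. Of the 8 blood markers tested, doxycycline gave 2 calls, both lower, in shAKAP2 and 4, all higher, in shScramble. Among all tested genes 13.1% were called higher and 15.2% lower in shAKAP2, and 0.559% higher in shScramble. The 8 fibroblast markers summed to 21.6 to 33.3 and 19.6 to 21.8 CPM in the shAKAP2 groups and to 24.8 to 46.7 and 46.5 to 70.5 CPM in the shScramble groups. Of the 7 tested, 3 were called lower in shAKAP2 and 1 higher in shScramble. The 5 endothelial markers summed to 4.26 to 5.84, 3.33 to 8.36, 5.24 to 9.83 and 10.4 to 13.9 CPM in the same order, with CDH5 at 4 counts or fewer per group. The uninduced endothelial range lies within the induced one in shAKAP2, and no endothelial marker was called there. The 6 epithelial markers summed to 1249 to 1310 CPM uninduced and 1480 to 1621 CPM induced in shAKAP2 without overlap, with 2 called higher, and to 1178 to 1592 and 1365 to 1908 CPM in shScramble. The 5 mesenchymal markers summed to 4560 to 4931 and 4265 to 4572 CPM in the shAKAP2 groups, with 2 called lower, and to 3866 to 4096 and 3732 to 4520 CPM in the shScramble groups. Between the uninduced lines, calls for single blood and fibroblast markers did not follow these sums. Of the 8 blood markers tested, 4 were higher and 1 lower in shAKAP2. Of the 7 fibroblast markers tested, 2 were higher and 1 lower. Among all tested genes 8.65% were higher and 9.31% lower there. The part of all these lists in the members' results was not tested.

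Doxycycline in the shScramble line combined the antibiotic with induction of the scrambled hairpin, and no group separates these from each other. No tested member was called by edgeR, where 1.08% of all tested genes were (0.559% higher, 0.52% lower). For none of the 9 did the uninduced and induced libraries separate without overlap, as 4.43% of all tested genes did. None had an unadjusted p under 0.05 either, and DESeq2 and limma-voom each called 0. The log2 fold changes ran from −0.35 (PDE4B, 95% interval −0.91 to 0.21) to 0.15 (PDE7A, −0.07 to 0.37), with a median of −0.07 over the members and 0.00 over all genes. For PDE4D the interval was −0.25 to 0.09, for PDE8A −0.08 to 0.22 and for PDE4A −0.31 to 0.08, each excluding the change the same gene showed in shAKAP2. The intervals of PDE4B and PDE1C (−0.65 to 0.51) were wider, so smaller doxycycline effects on these were not detectable. PDE4D was lower in the induced than in the uninduced library of each of the 4 replicate numbers, and its log2 fold change was −0.08 (adjusted p = 0.871, and 0.851 with the replicate number as a block). The block shares its effects between both lines, so a paired doxycycline effect within shScramble alone was not tested.

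The difference between the doxycycline effects of the lines was tested as an interaction. It was called for 5 of the 9 members, with 4 lower and 1 higher, against 18% of all tested genes (10.5% lower, 7.53% higher). The median was −0.50 over the members and 0.00 over all genes. PDE4D differed by log2 −1.17 (SE 0.118, adjusted p = 5.86e-07), PDE8A by −0.74 (SE 0.102, 2.78e-05), PDE7B by −1.09 (SE 0.233, 0.00324) and PDE4A by −0.50 (SE 0.135, 0.0140). PDE1C differed by 2.05 in the other direction (SE 0.546, adjusted p = 0.0141). Without the filter on low counts this PDE1C call was lost (adjusted p = 0.0595).

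PDE4B, PDE7A and PDE10A were called in shAKAP2 without a called difference between the lines. For PDE4B the difference was log2 −1.02 with a 95% interval of −1.84 to −0.21 (adjusted p = 0.0792). It was called by DESeq2, without the uninduced shScramble replicate 1, without both shScramble replicate 1 libraries, and without induced shScramble replicate 4, with adjusted p from 0.0108 to 0.223 over the alternatives. The interval was 0.03 to 0.66 for PDE7A (adjusted p = 0.131) and −0.45 to 0.05 for PDE10A (adjusted p = 0.282). PDE3B differed by 0.12 with an interval of −0.43 to 0.66.

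**Figure D3:**
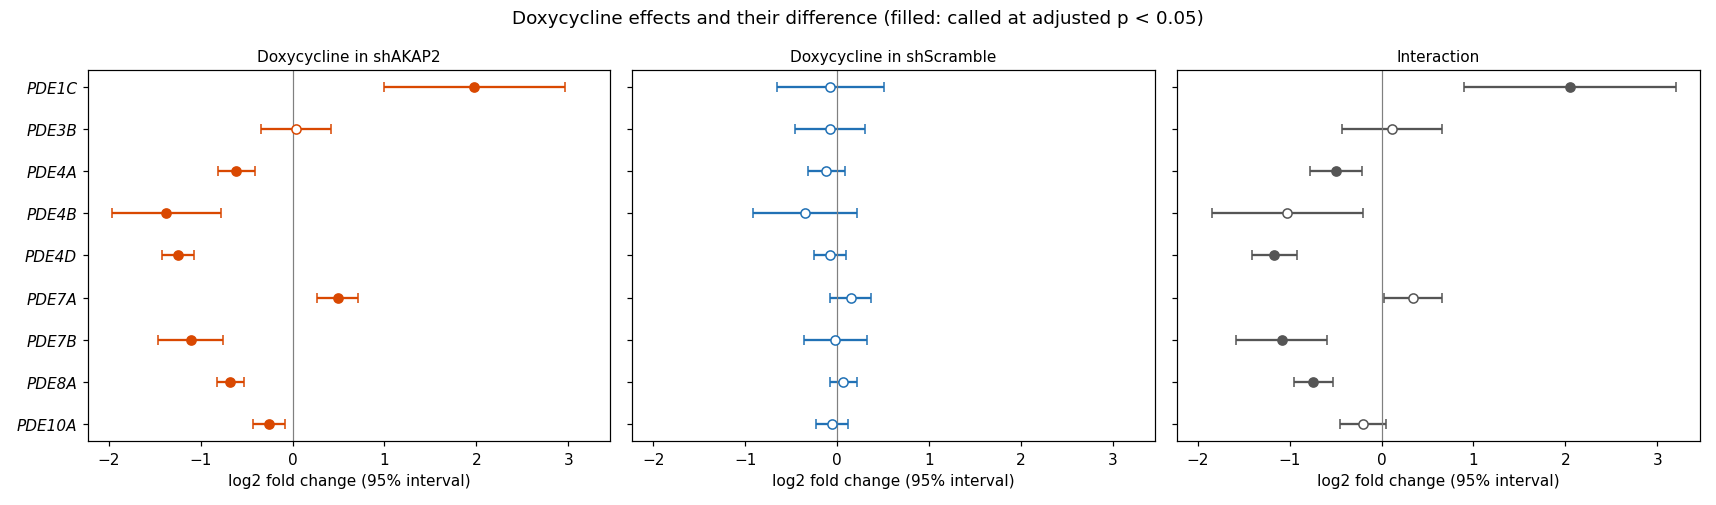
Log2 fold change (x axis) with its 95% interval for the 9 tested members (y axis): doxycycline in shAKAP2, doxycycline in shScramble, and the difference between both effects. Filled points passed an adjusted p of 0.05; in shScramble all points are open and lie between −0.35 and 0.15.

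Lines were then compared without doxycycline, before either hairpin was induced. Only PDE1C was called among the 9 members, where 18% of all tested genes were called (9.31% lower, 8.65% higher). It was at 12.3, 12.8, 12.7 and 18.2 CPM in uninduced shScramble (1671 counts in all) and at 0, 0.346, 0.419 and 0.382 CPM in uninduced shAKAP2 (34 counts in all). The libraries of the lines did not overlap, and the fitted difference was 48.1-fold lower in shAKAP2 (log2 −5.59, SE 0.400, adjusted p = 7.98e-08). The fitted size depends on how low counts are handled: it was log2 −5.18 without the uninduced shAKAP2 library at 0 counts and −6.24 in limma-voom. Groups overlapped for the other 8 members, with 25.5% of all tested genes not overlapping in this comparison. PDE4A was 1.18-fold lower (log2 −0.23, SE 0.0950, adjusted p = 0.0924) and PDE7B 1.30-fold lower (log2 −0.37, SE 0.163, adjusted p = 0.121), and neither passed the test. Without uninduced shScramble replicate 3, PDE4A did pass (adjusted p = 0.0356). The 95% interval was −0.14 to 0.16 for PDE8A, −0.16 to 0.19 for PDE10A and −0.09 to 0.25 for PDE4D. The median was 0.01 over the members and −0.01 over all genes.

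With doxycycline in both lines, 7 members differed, 6 lower and 1 higher in shAKAP2, against 40.2% of all tested genes (21.5% lower, 18.7% higher). This comparison shares the induced shAKAP2 libraries with the doxycycline comparison above, so the values are set side by side and are not a second observation. They were log2 −3.54 for PDE1C (SE 0.336, adjusted p = 2.06e-07), −1.46 for PDE7B, −1.37 for PDE4B, −1.09 for PDE4D, −0.73 for PDE4A, −0.73 for PDE8A and 0.50 for PDE7A. PDE3B (0.39, adjusted p = 0.103) and PDE10A (−0.19, adjusted p = 0.0886) were not called, although the groups did not overlap for any of the 9 members (37.8% of all tested genes had no overlap). The median was −0.73 over the members and −0.01 over all genes.

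**Figure D4:**
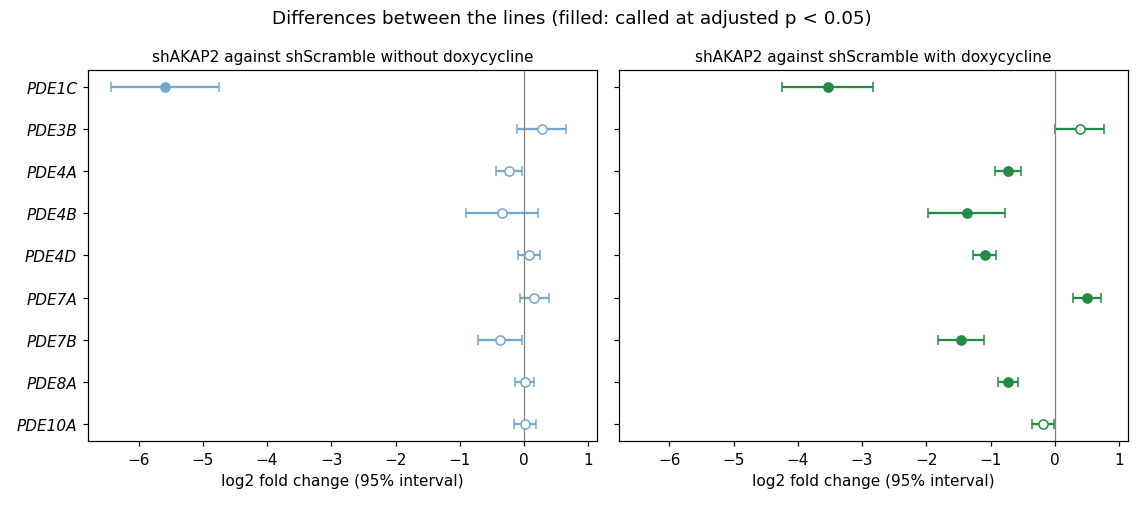
Log2 fold change (x axis) with its 95% interval for shAKAP2 against shScramble, without doxycycline and with it, for the 9 tested members (y axis); filled points passed an adjusted p of 0.05. PDE1C is the 1 filled point without doxycycline, at −5.59, and is at −3.54 with it.

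Members were sorted by these tests into line differences and changes that follow induction. A line difference required a call of the same sign in both line comparisons and none for doxycycline. PDE1C had the same sign in both line comparisons, as did 9.91% of all tested genes, but it was also called for doxycycline. No tested member met the full rule, and 7.11% of all tested genes did. Following induction required a call for doxycycline in shAKAP2 and for the interaction. PDE1C, PDE4A, PDE4D, PDE7B and PDE8A met this, 5 of 9, against 16% of all tested genes. PDE1C was also the 1 member with same-sign line calls and a call for doxycycline in shAKAP2 (2.72% of tested genes). It was lower in shAKAP2 with and without doxycycline and higher with induction. Induction thus moved PDE1C toward the shScramble level while leaving it 11.6-fold below. PDE4B, PDE7A and PDE10A changed with doxycycline in shAKAP2 and could not be placed, and PDE3B was called nowhere.

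Likeness was measured as the distance between centred group means of log2 CPM over the 4 groups. Before the logarithm 0.5 CPM was added, which narrows gaps at low levels such as those of PDE1C. The genes with the pattern closest to 2 of the members were named, among 12855 genes with a mean of at least 1 CPM. For PDE4D these were TPD52L2 (distance 0.0655), the long noncoding RNA TUG1 (0.0825) and the chromatin organiser SATB1 (0.0842). TPD52L2 had means of 252, 244, 256 and 113 CPM in uninduced shScramble, induced shScramble, uninduced shAKAP2 and induced shAKAP2. For PDE1C the nearest were the neurotrophin receptor NGFR (1.19), the cystatin CST1 (1.29) and the BMP antagonist CHRDL1 (1.37), at distances over 10 times as large. NGFR had 124, 120, 14.7 and 9.89 CPM in that order. It too was lower in the shAKAP2 line, but was not higher with induction. Its gap between the uninduced lines was smaller than that of PDE1C (14.0 CPM in shScramble and 0.287 CPM in shAKAP2). A distance over 4 group means describes likeness in these libraries and nothing more.

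The remaining phosphodiesterase genes were read from a list of 14, of which 8 were tested. With doxycycline in shAKAP2, 3 were lower and none higher (list median log2 −0.49), against 15.2% and 13.1% of all tested genes. They were PDE8B, the relative of PDE8A (log2 −0.62, SE 0.134, adjusted p = 0.00143), the cyclic GMP-specific PDE9A (−1.11, SE 0.317, adjusted p = 0.0120), and PDE6D (−0.36, SE 0.118, adjusted p = 0.0244). PDE6D is a chaperone for prenylated proteins and not itself a hydrolase. The interaction was called for PDE9A (−1.52, adjusted p = 0.0176) and PDE6D (−0.50, adjusted p = 0.0380) but not for PDE8B (−0.26, adjusted p = 0.379). Without doxycycline 1 of the 8 differed between the lines, PDE6D at −0.34 (adjusted p = 0.0453). Among all tested genes 18% were called in each of these last 2 comparisons, the interaction and the uninduced lines.

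For the enzymes that make cyclic nucleotides and the subunits that control them, the shares called lay near the 28.3% of all tested genes. Of 18 adenylyl and guanylyl cyclase genes 8 were tested, and 2 were lower with doxycycline in shAKAP2 (list median −0.37): the adenylyl cyclase ADCY9 (log2 −0.48, SE 0.114, adjusted p = 0.00287) and the guanylyl cyclase receptor GUCY2C (−1.48, SE 0.445, adjusted p = 0.0167), the latter from 113 to 36 counts. Both were called in the interaction, where 18% of all tested genes were. Of 7 G protein alpha subunits, which couple receptors to the cyclases, 2 were lower (list median 0.02). GNAI2, an inhibitor of adenylyl cyclase, went from 394 to 255 CPM (log2 −0.63, adjusted p = 1.14e-06), and GNAO1 changed by −0.42 (adjusted p = 0.0298). GNAI2 also went from 399 to 330 CPM with doxycycline in shScramble, where it was not called. In the interaction 1 of the 7 alpha subunits was called, lower, as were 10.5% of all tested genes. Between the uninduced lines, where 18% of all tested genes were called, edgeR called no cyclase and no alpha subunit. None had an unadjusted p under 0.05.

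Genes that read the messengers were called in both directions. Of 24 effector genes 18 were tested, and 5 were lower and 1 higher with doxycycline in shAKAP2 (list median −0.38). Among all tested genes 28.3% were called, 15.2% lower and 13.1% higher. The kinase A regulatory subunits PRKAR1A (log2 −0.65, SE 0.0655, adjusted p = 2.17e-07) and PRKAR2A (−0.62, adjusted p = 1.85e-05) fell. So did its catalytic subunits PRKACB (−0.75, adjusted p = 2.77e-06) and PRKACA (−0.37, adjusted p = 0.000480). PRKAR1A went from 422 ± 23.6 to 269 ± 18.1 CPM in shAKAP2 and was at 360 ± 23.0 and 362 ± 15.9 CPM in shScramble (SD, n = 4). All 4 of these lower subunits were called in the interaction, where 18% of all tested genes were. The regulatory subunit PRKAR1B, named after its values were seen, went the other way in shAKAP2. It was at 18.2 to 21.4 CPM uninduced and at 22.7 to 25.5 CPM induced. Between the uninduced lines 3 effectors were higher and 1 lower in shAKAP2, against 8.65% and 9.31% of all tested genes. Among them were the Popeye domain protein POPDC3 (0.46, adjusted p = 0.00958) and the channel HCN3 (−0.996, adjusted p = 0.00796).

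Proteins that bind or anchor phosphodiesterases moved in both directions. All 15 listed partners were tested, and with doxycycline in shAKAP2 4 were higher and 4 lower (list median 0.01). Among all tested genes 13.1% were higher and 15.2% lower. AKAP9, a centrosomal and Golgi scaffold that binds a PDE4D form, fell by 0.96 on the log2 scale (SE 0.130, adjusted p = 1.12e-05). ARRB2, the beta-arrestin that brings PDE4D to activated receptors, changed by −0.60 (adjusted p = 7.76e-05), and the PDE4-binding dynein regulator NDE1 by −0.44 (adjusted p = 0.000202). PDE4DIP, or myomegalin, rose by 0.57 (SE 0.0891, adjusted p = 6.12e-05), but its interaction was not called (0.22, adjusted p = 0.251). Without doxycycline 4 partners were lower in shAKAP2, including ARRB2 (−0.55, adjusted p = 0.000509), against 9.31% of all tested genes. Doxycycline in shScramble gave no edgeR call in any of the 5 lists, where 1.08% of all tested genes were called. In these lists 5 genes had an unadjusted p under 0.05 (among them PDE8B, ADCY3, GNAI2 and PDE4DIP, named after their values were seen). The lists had 8, 8, 7, 18 and 15 tested genes, in the order described. The share of all tested genes with such an unadjusted p is not given, so nothing is read from this count. These lists are read by their counts and medians beside those of all tested genes (medians of 0.00 for doxycycline in shAKAP2 and −0.01 for the uninduced lines).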

How the data were processed

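Polyadenylated RNA from 16 libraries was sequenced. The authors deposited one table of raw counts per gene; STAR 2.5.2b, Subread 1.5.2 with featureCounts, and GRCh38 are named in the submitters' processing notes, and the sources used here state neither the annotation release nor the strand setting. Without strand, reads of a gene and its antisense partner cannot be told apart. Every column matched 1 library by its label.

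Counts were analysed in R 4.3.3 with edgeR 4.0.16 (TMM scaling, filterByExpr, robust quasi-likelihood fit of 4 group means over all 16 libraries, 12 residual degrees of freedom, Benjamini-Hochberg over 15566 genes). DESeq2 1.42.0 and limma 3.58.1 (voom) were alternatives, with another scaling, no filter, only the groups compared, a replicate block and libraries left out. The test was tested on simulated counts. Positions and 3′ UTRs came from GENCODE 29 (56898 of 57500 identifiers matched), promoters from RefSeq. No 2 libraries of a group agreed within sampling noise.

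The members and lists were chosen with earlier results of these data known. Named genes were all 10 members and AKAP2, and, from each pathway list, up to 4 called genes with the smallest p for doxycycline in shAKAP2 and up to 2 for the uninduced lines, with the 3 nearest patterns of 2 members; some genes the rule names are not reported here. CPM intervals and floors (3 counts over a group) cover counting error only.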

Additional observations from a re-analysis of the deposited data

Results flagged for a closer look

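In 6 of the 39 sets of 4 libraries checked, 1 library lay far from the other 3, where chance gives about 1 in 20 for normally distributed values. PDE1C was at 18.2 CPM in uninduced shScramble replicate 4 and at 12.3 to 12.8 CPM in the other 3. PDE3A had 0.0537 CPM in uninduced shScramble replicate 1 and 0.0768 CPM in uninduced shAKAP2 replicate 2, each 2 counts, with the others at 0. A set with a single library above 0 is always flagged, so the rate of 1 in 20 does not hold for PDE3A. PDE3B was at 3.16 CPM in induced shScramble replicate 1 (others 3.77 to 3.83). PDE7A was at 13.5 CPM in uninduced shScramble replicate 1 (others 12.0 to 12.1). PDE10A was at 49.4 CPM in uninduced shAKAP2 replicate 4 (others 43.0 to 44.0), the library without which its doxycycline call was lost.

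The doxycycline effect differed between the lines by edgeR's interaction test for 5 members: by log2 2.05 for PDE1C, −0.50 for PDE4A, −1.17 for PDE4D, −1.09 for PDE7B and −0.74 for PDE8A.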

How the results depend on the processing

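No direction of a called member reversed under any alternative. The number of members called for doxycycline in shAKAP2 was 8 and ran from 7 to 8 with 1 library left out. For the interaction it was 5, from 5 to 6 with 1 library left out, 4 without the filter and 6 with DESeq2. Between the uninduced lines it was 1, and 1 to 2 with 1 library left out, the gain being PDE4A without uninduced shScramble replicate 3. With doxycycline it was 7, and for doxycycline in shScramble 0, in every alternative run. Leaving out both shScramble replicate 1 libraries gave 8, 0, 6, 1 and 7 members.

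Replicate numbers did not pair libraries across the lines: 3 of 24 same-numbered pairs correlated above 0.1 (range −0.17 to 0.54). All 3 were between uninduced and induced shScramble (0.54, 0.30 and 0.12, with 0.04 for the other pair there), so cultures may be paired within that line. Of all 16 libraries, 5 correlated best with their own number. With the replicate block the counts of called members were 8, 0, 5, 1 and 7, as without it. That block fits 1 effect per number for both lines together. Pairing within shScramble alone was not tested. Counts limit PDE1C in shAKAP2 (34 and 120 in all) and PDE3A.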
